A study of Mus musculus with 12 samples.

Results

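RNA of whole spinal cord was measured in 12 mice aged 1 week, and 36 genes of the cell cycle were described across the 12 libraries. The genes were taken by symbol from a fixed list of DNA replication and mitosis genes. All 36 were among the 38924 genes of each file, and all 36 passed the filter on low counts, which left 17995 genes for testing. Every mouse had the B6J;CAST background, and the labels gave 4 groups of 3 libraries, wt and P278KY mice of either labelled sex, with no treatment. P278KY is a mutant allele of Gars, which encodes glycyl-tRNA synthetase, and the series title gives it over a wild-type allele (GarsP278KY/+), at an age before disease onset. It is an inherited allele present in every cell, so the groups do not isolate a cell type. Libraries are named by labelled sex, genotype and mouse number (female wt 1). Each came from 1 mouse, and no mouse number was shared between groups. Library totals lay between 27713981 and 43219891 counts, and the members' counts ran from 61 to 4014.

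In 2 of the 12 libraries the sex marks went against the label, and both were wt. The library labelled female wt 14 held 0.533 CPM (counts scaled to the library total) of Xist, the RNA of the inactive X chromosome, and 45.1 CPM of the Y-linked Ddx3y. The library labelled male wt 19 held 860 CPM of Xist and 0.0233 CPM of Ddx3y. Both stood among the 4 libraries with the most cell cycle RNA, so the genotype results are given with and without them.

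A cell that divides first licenses its origins of replication: Cdc6 and Cdt1 load the ring of Mcm2 to Mcm7 onto DNA, and cyclin E with its kinase starts synthesis. Cyclin A and cyclin B with Cdk1 then drive entry into mitosis, kinesins and microtubule-binding proteins build the spindle, and the anaphase-promoting complex with Cdc20 ends mitosis. Most of these genes are silent in resting cells, where the DREAM complex represses them. E2F factors act on the promoters of replication genes, and the MuvB core of DREAM acts on mitotic promoters through the cell cycle homology region (CHR), often with NF-Y at neighbouring CCAAT boxes. In the spinal cord of the young mouse most neurons have left the cycle, and glial precursors, microglia and vascular cells are among the cells that still divide. In whole tissue, fewer dividing cells and less RNA per dividing cell cannot be told apart.

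Promoter windows from 250 bases before to 50 bases after the start were taken from RefSeq (GRCm38.p6), by symbol. A window was matched for 30 of the 36 genes, and Mcm7 and Prc1 had more than 1, which gave 32 windows. Not matched were Mcm4, Ccne2, Ccna2, Aurkb, Kif20a and Tpx2. The windows were searched for 3 kinds of motif on both strands: the CHR as TTTGAA or TTCGAA, the CCAAT box as CCAAT, and the E2F site as TTTGGCGC, TTTCGCGC, TTTCCCGC or TTTGCCGC. Stretches of 160 bases before the start are shown for 6 genes whose windows carry E2F sites with CCAAT boxes (Mcm5, Mcm6), a CHR with CCAAT boxes (Cdc20, Kif11, Top2a) or all 3 kinds (Cdk1), and for Tyms, whose window carried none. They are written 5′ to 3′ on the gene's strand, with every motif match in capitals. On the opposite strand a CCAAT box reads ATTGG and a TTTGAA reads TTCAAA, while TTCGAA reads the same on both. Neighbouring E2F matches of Mcm5 and of Mcm6 overlap each other and are capitalised as 1 run.
Mcm5: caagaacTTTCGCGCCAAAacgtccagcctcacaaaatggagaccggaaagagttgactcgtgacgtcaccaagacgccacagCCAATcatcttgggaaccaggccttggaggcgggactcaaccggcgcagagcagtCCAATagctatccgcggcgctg
Mcm6: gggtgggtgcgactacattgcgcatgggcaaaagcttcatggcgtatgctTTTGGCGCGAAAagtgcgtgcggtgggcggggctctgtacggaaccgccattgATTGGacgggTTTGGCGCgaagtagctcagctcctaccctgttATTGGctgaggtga
Cdk1: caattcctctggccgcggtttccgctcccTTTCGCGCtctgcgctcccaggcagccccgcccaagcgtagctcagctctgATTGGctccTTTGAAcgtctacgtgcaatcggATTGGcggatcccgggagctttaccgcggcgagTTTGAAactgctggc
Cdc20: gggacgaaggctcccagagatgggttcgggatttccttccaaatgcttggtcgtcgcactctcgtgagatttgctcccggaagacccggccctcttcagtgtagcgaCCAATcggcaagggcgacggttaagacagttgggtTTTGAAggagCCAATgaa
Kif11: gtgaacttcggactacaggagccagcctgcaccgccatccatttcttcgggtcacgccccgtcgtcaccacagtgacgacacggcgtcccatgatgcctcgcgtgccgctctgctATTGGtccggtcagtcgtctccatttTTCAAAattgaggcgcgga
Top2a: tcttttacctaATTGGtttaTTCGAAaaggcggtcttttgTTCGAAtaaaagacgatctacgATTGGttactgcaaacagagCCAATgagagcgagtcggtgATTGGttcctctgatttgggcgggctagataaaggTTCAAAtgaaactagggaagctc
Tyms: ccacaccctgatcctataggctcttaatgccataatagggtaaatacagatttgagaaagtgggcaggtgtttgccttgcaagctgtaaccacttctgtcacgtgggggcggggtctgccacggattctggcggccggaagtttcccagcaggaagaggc
The stretches lie at chr8:75109349-75109508 on the plus strand (Mcm5), chr1:128359706-128359865 on the minus strand (Mcm6), chr10:69352913-69353072 on the minus strand (Cdk1), chr4:118437344-118437503 on the minus strand (Cdc20), chr19:37376222-37376381 on the plus strand (Kif11), chr11:99024190-99024349 on the minus strand (Top2a) and chr5:30073626-30073785 on the minus strand (Tyms).

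The matches differed in number between the roles. Of 20 windows of mitosis genes, 16 (80.0%) held a CHR, 18 a CCAAT box and 2 an E2F site. Prc1 counts with 2 windows here, with a CHR at -5 and a CCAAT box at -37 in 1 and at -30 and -62 in the other. These may be the same bases. Of 8 windows of licensing genes, 6 (75.0%) held an E2F site, 6 a CCAAT box and 2 (25.0%) a CHR. Of 4 windows of synthesis and G1/S cyclin genes, 2 held a CCAAT box and none a CHR or an E2F site, so that 6 of the 12 replication windows held an E2F site. Cdc6 and Cdt1 held an E2F site alone, and Pcna, Rrm2, Ccnb1 and Cenpe a CCAAT box alone. Among all 32851 windows of the same length, 19.2% held a CHR, 37.4% a CCAAT box and 2.26% an E2F site. Both CHR and CCAAT box occurred in 16 of the 20 mitosis windows and in 7.52% of all windows. All 4 checkpoint and exit genes (Bub1, Bub1b, Cdc20, Ube2c) and all 3 chromosome genes (Mki67, Top2a, Ncapg) held both. Cdk1 held all of the motifs, with a CHR starting at -71 and another at -15 from the start (first base of the match) and an E2F site at -131. Top2a held a CHR at -179, -140, -120 and -23, and Kif11 had a single one at -19 with a CCAAT box at -45. No motif was matched in the windows of Tyms, Ccne1, Birc5 and Nusap1. These shares are descriptions with no test, and a match is a run of letters, not a measured binding site.

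Levels of different genes were compared in TPM, which is scaled to transcript length. The 36 genes had a median of 8.52 TPM, against 13.2 TPM over all genes tested, and 12 of the 36 lay above that. There were 8 genes under 5 TPM, 19 between 5 and 15 TPM and 9 above 15 TPM. Pcna, the sliding clamp of DNA polymerase, was highest at 71.0 ± 8.01 TPM (SD, n = 12). Top2a, the topoisomerase that untangles sister chromatids, followed at 26.8 ± 4.34 TPM, and Cdk1, the kinase of mitotic entry, at 26.7 ± 5.40 TPM. These 2 levels differed by less than their spread. Ube2c, the ubiquitin-conjugating enzyme of the anaphase-promoting complex, stood at 24.1 ± 5.09 TPM, Mcm7 at 22.5 ± 2.18 TPM and Tyms, the enzyme that makes thymidylate, at 20.9 ± 1.40 TPM. At the low end was the loader Cdc6 at 1.94 ± 0.494 TPM, below the kinetochore motor Cenpe at 3.58 ± 0.524 TPM and the checkpoint kinase Bub1 at 3.81 ± 0.805 TPM.

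Partners in 1 complex were not equally abundant. Within the Mcm2 to Mcm7 ring, Mcm7 and Mcm6 (19.5 ± 1.75 TPM) lay above Mcm4 (12.6 ± 1.52 TPM), and Mcm2, Mcm5 and Mcm3 lay between 8.31 and 9.16 TPM, within their spread of one another. Of the B-type cyclins, Ccnb1 stood at 10.83 TPM (8.13 to 14.4 over the 12 libraries) and Ccnb2 at 8.21 ± 1.70 TPM, while the cyclin A gene Ccna2 reached 14.96 ± 2.24 TPM. Aurkb and Birc5, 2 subunits of the chromosomal passenger complex, stood at 7.73 ± 1.39 TPM and 13.5 ± 2.53 TPM. Among the spindle genes Prc1, which bundles antiparallel microtubules at the midzone, was highest at 19.5 ± 1.75 TPM, and Kif23, a motor of cytokinesis, was at 3.96 ± 0.630 TPM. Mki67, the source of the Ki-67 antigen, stood at 13.5 ± 2.29 TPM.

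**Figure D1:**
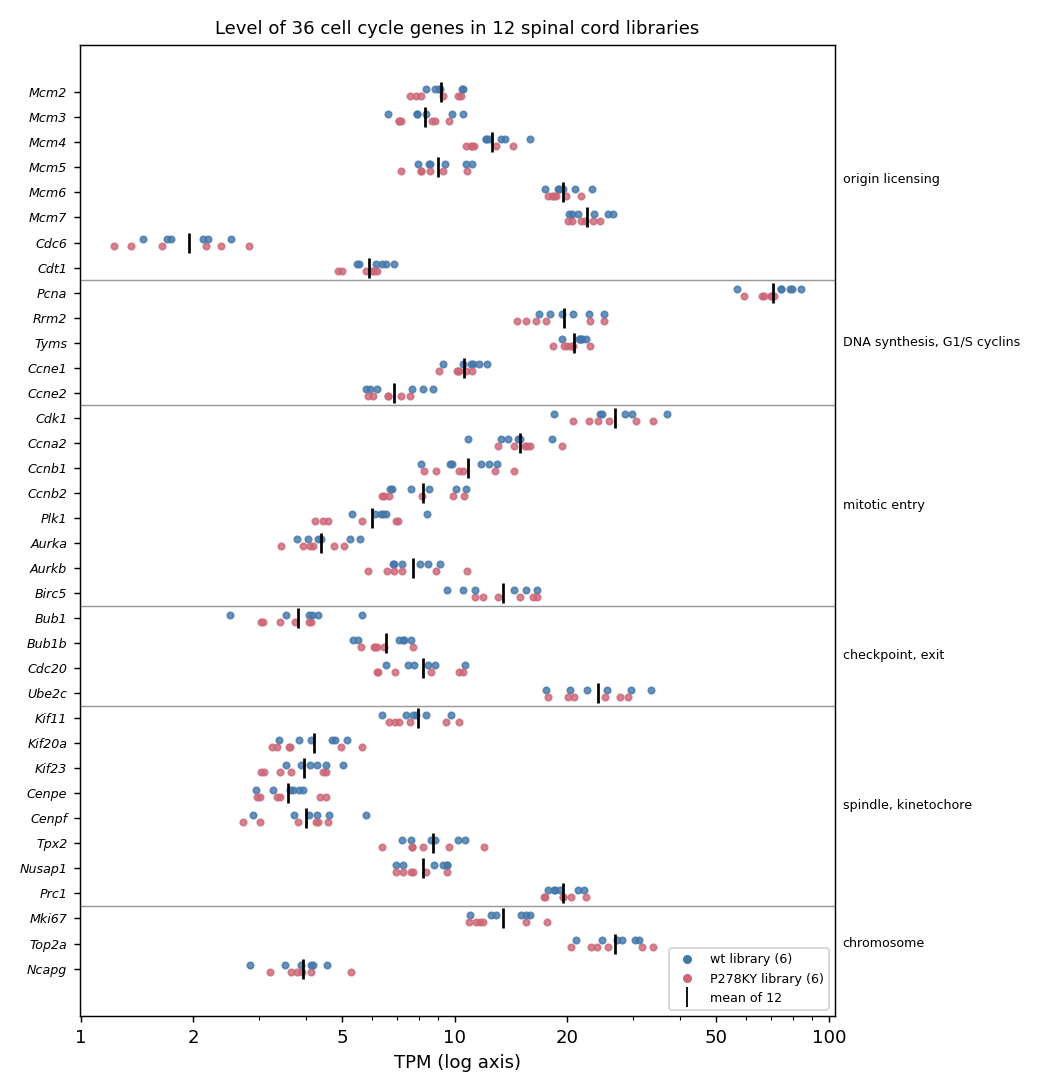
Levels of the 36 cell cycle genes in TPM on a log axis, with 1 point per library (blue wt, red P278KY, 6 each) and a bar at the mean of the 12 libraries, grouped by role. The points of both genotypes overlap in every gene, from Cdc6 at 1.94 TPM to Pcna at 71.0 TPM.

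Expected counts were fractional (by over 0.005) in at least 1 library for 20 of the 36 genes, so some fragments were divided with other genes. By GENCODE M21, 16 of the genes overlap another annotated gene, 14 of them one on the opposite strand, and the sources used here do not say whether the counting used strand. Ube2c shares 1662 bases with Tnnc2, a fast muscle troponin, on the other strand. Tnnc2 ran from 0.324 CPM to 126 CPM over the libraries. Ube2c was highest, at 14.4 CPM, in female wt 14, where Tnnc2 stood at 1.76 CPM, and it stood at 9.67 CPM in male P278KY 3, where Tnnc2 was highest. An exchange of counts between these genes was not tested. Other overlaps were Ccne2 with Ints8 (5622 bases), Ncapg with Lcorl (3366 bases) and Kif20a with Cdc23 (2327 bases), and Prc1 lies over Rccd1. Cdt1 is overlapped on its own strand by Gm20388 over its full annotated length of 5540 bases, and its counts were whole in every library.

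Differences between libraries were read in CPM scaled by TMM factors. The ratio of the highest to the lowest library had a median of 1.64 over the 36 genes and ran from 1.254 (Mcm6) to 2.16 (Cdc6), against a median of 1.44 over all genes tested. For the 13 replication genes (licensing, synthesis and G1/S cyclins) the median ratio was 1.45, and for the 23 mitosis genes 1.65. Mki67 ran through the wt libraries at 59.6 CPM (female wt 1), 75.9 CPM (female wt 2), 87.9 CPM (female wt 14), 68.5 CPM (male wt 6), 90.6 CPM (male wt 9) and 93.7 CPM (male wt 19). In P278KY it stood at 67.2 CPM (female 4), 99.7 CPM (female 7), 91.8 CPM (female 10), 66.9 CPM (male 3), 71.8 CPM (male 5) and 67.7 CPM (male 13). Female wt 1 was the lowest of the 12 libraries and female P278KY 7 the highest, and the genotypes overlapped over most of the range.

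Top2a was also lowest in female wt 1 and highest in female P278KY 7. Its wt values were 42.4 CPM in female wt 1, 58.1 CPM in female wt 2, 62.9 CPM in female wt 14, 51.3 CPM in male wt 6, 59.97 CPM in male wt 9 and 67.0 CPM in male wt 19. Its P278KY values were 49.4 CPM in female 4, 69.9 CPM in female 7, 64.3 CPM in female 10, 53.8 CPM in male 3, 56.6 CPM in male 5 and 48.4 CPM in male 13. Cdk1 ran from 8.74 CPM in female wt 1 to 14.2 CPM in female wt 14, and in P278KY from 9.54 CPM in female 4 to 13.5 CPM in female 10.

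A few libraries held most of the extremes. Female wt 1 was lowest for 20 of the 36 genes, 17 of them among the 23 mitosis genes and 3 among the 13 replication genes. Female P278KY 4 was lowest for 8. Male wt 19 was highest for 14 genes, female P278KY 7 for 9 and female wt 14 for 6. When each gene was set relative to its own mean on the log2 CPM scale, the mean over the 36 genes was -0.32 in female wt 1, -0.21 in female P278KY 4, 0.18 in female wt 14, 0.19 in female P278KY 7 and 0.25 in male wt 19. The library means thus spanned 0.57 on the log2 scale, or 1.48-fold. The span was 1.56-fold for the mitosis genes and 1.35-fold for the replication genes. In male wt 19, 35 of the 36 genes lay above their own mean, and in female wt 1 only 2 did.

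**Figure D2:**
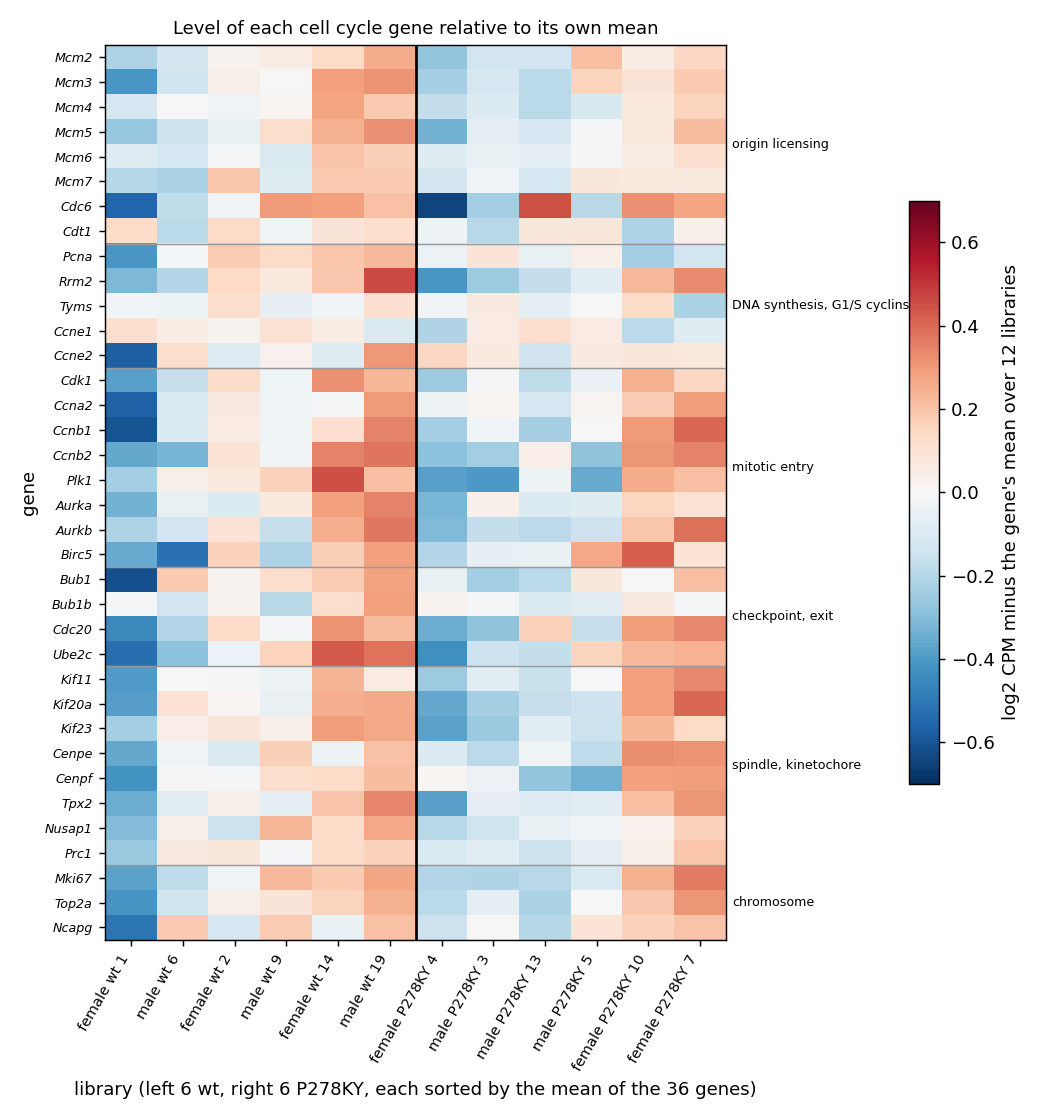
Each gene (rows, grouped by role) in each library (columns; wt left, P278KY right, each sorted by the mean of the 36 genes), coloured by log2 CPM minus the gene's mean over the 12 libraries. Most rows shift from low to high together along each genotype, from -0.32 on average in female wt 1 to 0.25 in male wt 19, while Cdt1, Tyms and Ccne1 do not.

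The genes rose and fell together across mice. Over the 630 pairs, Pearson's r of log2 CPM across the 12 libraries had a median of 0.70, and 70.5% of pairs exceeded 0.5, against 9.38% of all pairs of tested genes. Libraries share their depth and tissue mix across all genes, and genes are not independent of one another, so these values are descriptive. Within the 6 wt libraries the median was 0.80 and within the 6 P278KY libraries 0.70. All 253 pairs of mitosis genes correlated positively, with a median of 0.77. The highest pair was the cyclin gene Ccnb1 with Top2a (r = 0.97), and Plk1 with Kif23 reached 0.95. The 15 pairs within Mcm2 to Mcm7 had a median of 0.82, although the replication genes as a whole had 0.36. Between replication and mitosis genes the median was 0.64.

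Set against the mean of the other 35 members, 22 genes had an r above 0.8, 9 lay between 0.5 and 0.8, and 5 lay below 0.5. Tpx2, which activates Aurka on the spindle, and Top2a reached 0.96, and Rrm2, the small subunit of ribonucleotide reductase, reached 0.95. The 5 genes apart from the rest were Ccne1 (-0.35), Cdt1 (0.04), Tyms (0.07), Pcna (0.46) and Bub1b (0.47). Of these, Tyms and Ccne1 had no motif match, and Cdt1, Pcna and Bub1b had matches. Birc5 (0.68) and Nusap1 (0.83) also had no match and lay above 0.5. A link between motifs and r was not tested. The cyclin E genes diverged, with an r of -0.57 between Ccne1 and Ccne2. Ccne1 was lowest in female P278KY 4, at 9.08 CPM, and highest in female wt 1, at 11.4 CPM, the library that was lowest for most members. Tyms ran only from 30.6 to 39.0 CPM.

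**Figure D3:**
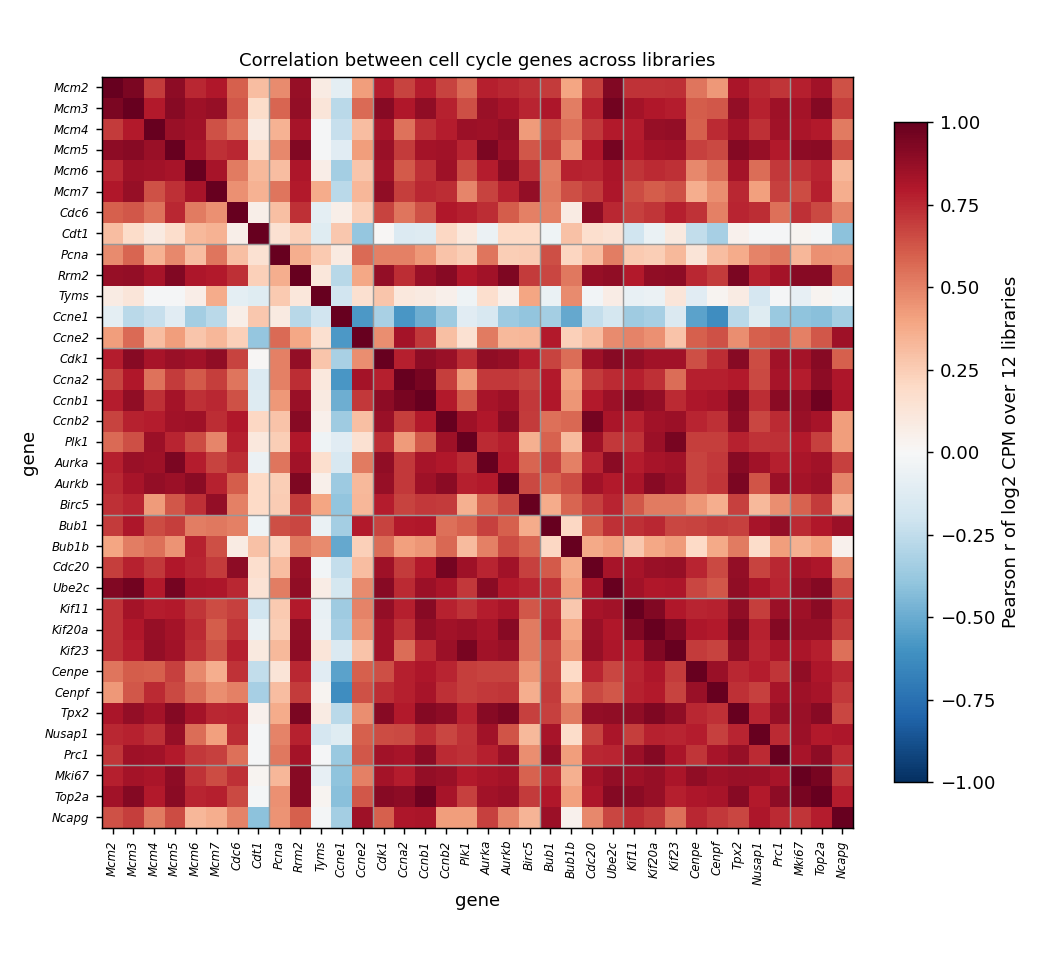
Pearson's r of log2 CPM over the 12 libraries for every pair of the 36 genes, in the order of roles; grey lines separate the roles. The block of mitosis genes is positive throughout (median 0.77), and the rows of Cdt1, Tyms and Ccne1 are pale or blue.

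No cell cycle gene passed the test of genotype. All 36 missed the threshold in the test of P278KY against wt (edgeR quasi-likelihood, labelled sex as a term, Benjamini-Hochberg adjustment over 17995 genes, threshold 0.05), where 0.00556% of all genes, a single gene, passed. That gene was Fgf21, a secreted hormone, which is no member. The smallest unadjusted p of a member was 0.1403, and none had an unadjusted p under 0.05, against 4.09% of all genes. DESeq2 called 0.183% of all genes and none of the 36. The members' log2 fold changes ran from -0.23 to 0.14 with a median of -0.04, against -0.01 over all genes. Of the 36 values, 27 (75.0%) were below 0 and 9 above, where 53.1% of all genes were below 0. For no member did the 2 genotypes' libraries separate without overlap, as they did for 0.222% of all genes. For all 36 genes the 95% interval of the difference lay within 1.5-fold in either direction, with outer bounds of -0.56 and 0.50 on the log2 scale.

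The balance of signs rested on single libraries. Without the library labelled male wt 19, 22 members were higher in P278KY and the median was 0.02. Without both libraries whose sex marks went against their labels, 29 of 36 were higher and the median was 0.07. Without female wt 1, only 2 were higher and the median was -0.11. With female P278KY 4 left out 19 were higher, and with female wt 14 left out 17. The numbers higher without female P278KY 7 and without female P278KY 10 were 4 and 5. No member passed the test in any of these fits.

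Within the roles, the gene with the smallest p is given, and the adjusted p of each gene named for its role (edgeR, genotype effect) rounds to 1.00. Of the licensing genes this was Mcm4, at 26.0 ± 2.68 CPM in wt and 24.0 ± 2.35 CPM in P278KY (SD, n = 6 each), a log2 fold change of -0.12 ± 0.08 (SE). Its highest library was female wt 14 at 30.1 CPM and its lowest male P278KY 13 at 21.8 CPM, and the groups overlapped between 22.9 and 27.6 CPM. Of the synthesis genes it was Pcna, with a median of 59.7 CPM in wt (40.4 to 62.8) and 51.9 CPM in P278KY (45.5 to 57.1). Female wt 1 held its lowest value of all 12, below every P278KY library, while the other 5 wt libraries lay between 53.3 and 62.8 CPM. The difference was -0.12 ± 0.09.

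Among the genes of mitotic entry it was Plk1, the polo-like kinase of centrosomes and kinetochores. Plk1 had a median of 7.53 CPM in wt (5.85 to 9.47) and 6.07 CPM in P278KY (5.23 to 8.30), with a log2 fold change of -0.23 ± 0.15. Female P278KY 4, male P278KY 3 and male P278KY 5 lay below the lowest wt library, and the other 3 P278KY libraries lay inside the wt range. Among checkpoint and exit genes it was Bub1b, which encodes the checkpoint protein BubR1, at 11.9 ± 1.47 CPM in wt and 11.5 ± 0.472 CPM in P278KY, a difference of -0.04 ± 0.08. Its P278KY libraries all lay within the wt range of 10.2 to 14.2 CPM.

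Kif23 led the spindle genes at 7.91 ± 1.03 CPM in wt and 7.08 ± 1.17 CPM in P278KY, with -0.16 ± 0.12. Ncapg, a condensin I subunit, led the chromosome genes at 7.74 ± 1.37 CPM and 7.86 ± 0.890 CPM, with 0.04 ± 0.12. Mki67 stood at 79.4 ± 13.6 CPM in wt and 77.5 ± 14.5 CPM in P278KY, with -0.04 ± 0.14. Without both libraries of contrary sex marks these log2 fold changes were -0.02 for Mcm4, -0.04 for Pcna, -0.12 for Plk1, 0.06 for Bub1b, -0.06 for Kif23, 0.08 for Ncapg and 0.06 for Mki67. In each of these genes, over all 12 libraries, the difference between the means was smaller than the SD of the wt libraries. The other 29 genes lay between -0.12 and 0.14, with Birc5, the survivin gene, at the upper end.

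**Figure D4:**
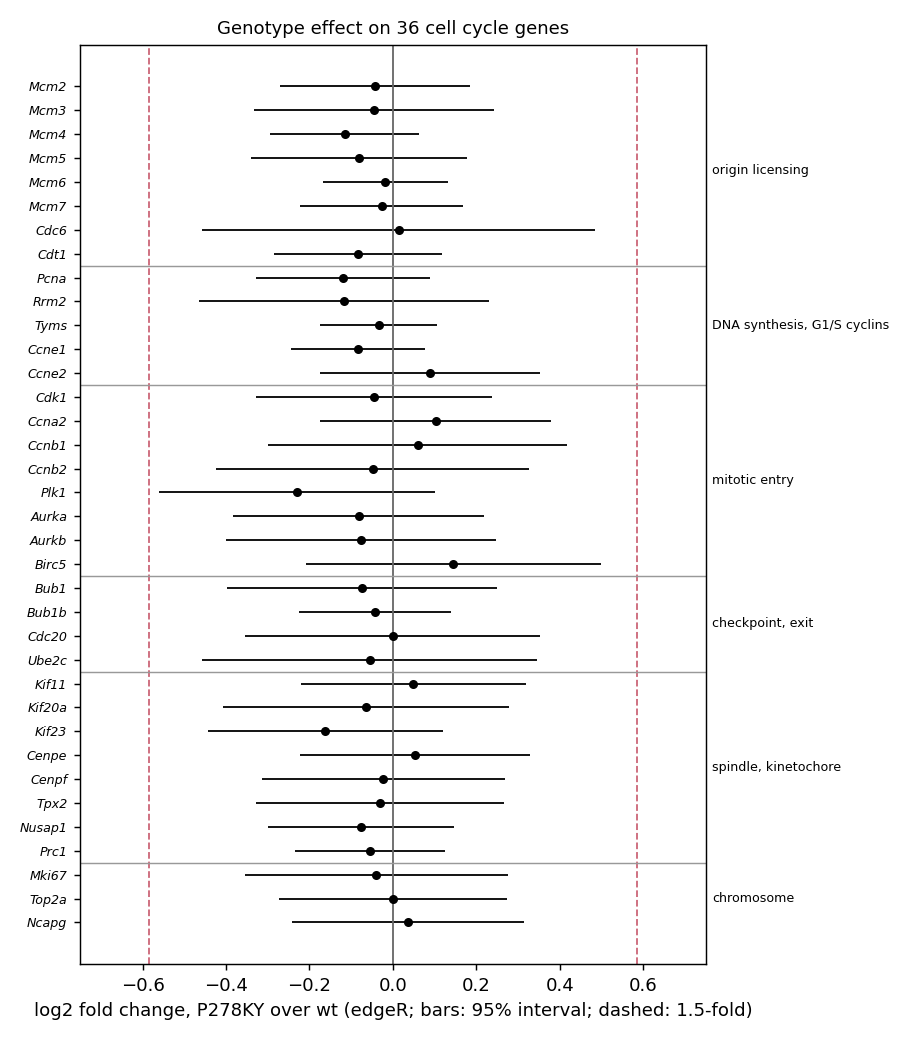
Log2 fold change of P278KY over wt for the 36 genes by role (points, edgeR) with 95% intervals (bars), a solid line at 0 and dashed lines at 1.5-fold. Every interval spans 0 and stays inside the dashed lines, and Plk1 (-0.23) and Birc5 (0.14) are the extremes.

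Within the labelled sexes no member passed the test. In females the balance of signs turned when single libraries were left out, while in males the median stayed below 0. In libraries labelled female, 25 were higher and 11 lower in P278KY, with a median log2 fold change of 0.06 and a smallest adjusted p of 0.372 (edgeR). In those labelled male, 4 were higher and 32 lower, with a median of -0.16 and a smallest adjusted p of 0.942 (edgeR). Of all genes, 51.9% were below 0 in females and 50.7% in males. The members vary together across libraries, so their signs are not independent of one another. edgeR called 0.0% of all genes in each sex, and 0.0% for the interaction. DESeq2 called 1.64% of genes in females, 0.189% in males and 1.55% for the interaction, and none of these were members. In the interaction, which is the female minus the male effect, 30 of 36 members were above 0 with a median of 0.24. Below 0 lay 16.7% of the members and 50.8% of all genes. The smallest adjusted p of a member was 0.263 (edgeR, Cenpe). The 2 largest values belonged to the kinetochore genes Cenpf (0.61) and Cenpe (0.60).

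Cenpe stood at 12.4, 14.8 and 15.5 CPM in female wt 1, 2 and 14, and at 14.9, 19.8 and 19.9 CPM in female P278KY 4, 7 and 10. In males it stood at 15.6, 17.8 and 18.4 CPM in wt 6, 9 and 19, and at 14.02, 14.02 and 15.6 CPM in P278KY 3, 5 and 13. Of the female P278KY libraries, 2 lay above every female wt library. The highest male P278KY library (15.59 CPM) lay barely below the lowest male wt one (15.64 CPM). Cenpe is shown because its adjusted p for the interaction was the smallest of the members. How many of all genes separate in this way within a sex was not counted. Each of these groups holds 3 mice, and each wt group holds 1 of the libraries with contrary sex marks. Without both, 32 members were higher in females with a median of 0.21, 13 were higher in males with a median of -0.04, and the median interaction was 0.26. The female values turned when single libraries were left out: 11 members were higher without female wt 1 (median -0.07), 14 without female P278KY 7 (-0.02) and 17 without female P278KY 10 (-0.01). In males, 13 were higher without the library labelled male wt 19 (median -0.04). Leaving out 1 library at a time moved the median interaction between 0.11 and 0.42. The smallest adjusted p of a member over the settings run was 0.836 for genotype (edgeR, DESeq2 and limma). Within sexes and for the interaction, where only edgeR (TMM or RLE factors, libraries left out) and DESeq2 were run, it was 0.179 in females, 0.616 in males and 0.0797 for the interaction.

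Other genes of the pathway were taken from 5 lists, and none of their genes passed the genotype test. Of 23 further replication genes 9 were higher and 14 lower in P278KY, of 32 further mitosis genes 13 and 19, and of 19 transcription factors and DREAM subunits 7 and 12. Among 7 G1 cyclins and kinases 2 were higher and 5 lower, and among 6 tested CDK inhibitors 3 and 3. The pair with the smallest p in each list is given with its log2 fold change. In replication these were Gins4, a subunit of the GINS helicase factor (0.13 ± 0.06), and Gmnn, the Cdt1 inhibitor geminin (-0.24 ± 0.11). In mitosis they were the checkpoint kinase gene Ttk (-0.36 ± 0.18) and Pttg1, which encodes securin (0.11 ± 0.08). The retinoblastoma gene Rb1 (0.13 ± 0.05) and the MuvB subunit gene Lin54 (0.12 ± 0.08) came from the transcription list. The D-type cyclins Ccnd2 (0.14 ± 0.10) and Ccnd3 (-0.14 ± 0.14) and the kinase inhibitors Cdkn2d (-0.12 ± 0.05) and Cdkn2b (-0.15 ± 0.17) completed the set. Without both libraries of contrary sex marks, Ccnd3 was at -0.00097 and Ccnd2 at 0.24, Gmnn at -0.11, Ttk at -0.22 and Pttg1 at 0.05.

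The means of the pathway lists varied over libraries with the members, although not every gene in them did. The list mean correlated with the members' mean at r = 0.98 for further mitosis genes, 0.95 for the transcription list, 0.91 for further replication genes, 0.88 for G1 cyclins and 0.71 for CDK inhibitors. Among the CDK inhibitors the median r of single genes was 0.11, and 4 of 6 were positive. Of the 87 pathway genes, 27 had an r above 0.8, against 1.74% of all genes tested. Cdkn2c, an inhibitor of the cyclin D kinases, reached 0.95, and Ccnd1, at 33.8 ± 3.06 TPM, reached 0.84. Cdkn1a, the p53 target p21, was at 0.00 and Rb1 at -0.20. These 4 genes were picked for the size of their r.

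Outside every list, the 10 genes nearest to the members' mean over the 12 libraries were Dlgap5 (r = 0.96), Ckap2l (0.95), Myc (0.93), Cks2 (0.92), Ckap2 (0.92), Banf1 (0.92), Kntc1 (0.92), Parpbp (0.92), Fam83d (0.91) and Ppp1r18 (0.91). Dlgap5, Ckap2l and Ckap2 encode spindle proteins, Cks2 a subunit of Cdk1 complexes, Kntc1 a kinetochore protein and Myc the growth-promoting transcription factor. Their levels ran from 1.43 ± 0.404 TPM (Parpbp) to 101 ± 6.56 TPM (Banf1). Dlgap5 ran from 3.77 to 6.87 CPM over the libraries and Myc from 9.91 to 14.6 CPM. They were picked as the highest of 17995 values, so the size of their r is a description.

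The means of some marker lists varied with the cell cycle genes, while others did not or ran the other way. Over the 12 libraries the mean of the members correlated with the mean of 8 endothelial markers (r = 0.76, Spearman's rho = 0.69) and of 6 red blood cell markers (r = 0.75, rho = 0.69). It also correlated with 8 markers of oligodendrocyte precursors (r = 0.72, rho = 0.71) and with 8 of microglia (r = 0.69, rho = 0.69). Single precursor markers ran from an r of -0.45 (Ptprz1) to 0.74 (Sox10), with 7 of 8 positive. Fibroblast markers gave r = 0.65 (rho = 0.48) and neutrophil markers r = 0.64 (rho = 0.71). Neuronal markers ran the other way, with r = -0.69 (rho = -0.61). Without the 2 libraries farthest from the median, female wt 1 and male wt 19, r was 0.62 for endothelium, 0.58 for red blood cells, 0.78 for oligodendrocyte precursors, 0.70 for microglia, 0.59 for fibroblasts, 0.66 for neutrophils and -0.56 for neurons. These are descriptions over 14 marker lists, with no test, since the points share their libraries.

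Summed over its 8 genes, the oligodendrocyte precursor list ran from 660 to 769 TPM in wt and from 605 to 772 TPM in P278KY. The microglial sum ran from 164 to 234 TPM in wt and from 170 to 253 TPM in P278KY, and the endothelial sum from 170 to 232 TPM and from 187 to 229 TPM. The neuronal sum ran from 3281 to 4314 TPM and from 3327 to 3735 TPM, and the sum of 8 astrocyte and radial glia markers from 3197 to 3656 TPM and from 3074 to 3822 TPM. Red blood cell genes ran from 3833 to 17484 TPM and from 7317 to 15239 TPM, fibroblast genes from 510 to 2084 TPM and from 720 to 1362 TPM, and neutrophil genes from 111 to 808 TPM and from 96.0 to 572 TPM. No marker of any list was at 0 in all libraries, and the neuronal and glial sums, the marks of spinal cord, were far above 0 in every library. The part of these cells in the shared variation was not tested.

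Of the 14 marker lists, skeletal muscle had the largest median log2 fold change between the genotypes, at 2.74. Its 8 markers summed to between 8.48 and 976 TPM in wt and between 79.4 and 2544 TPM in P278KY, and all 8 were higher in P278KY, none past the test (edgeR). Its mean had an r of 0.06 with that of the cell cycle genes (rho = 0.06). The 6 Schwann cell and 6 sensory neuron markers were all lower in P278KY, with medians of -0.85 and -1.18, none past the test (edgeR). Single libraries weighed heavily in both lists. On the centred log2 CPM scale the sensory mean was 3.48 in female wt 14, a library with contrary sex marks. In the other wt libraries it lay between -0.52 and 0.24. The Schwann cell mean was -3.85 in male P278KY 3 and -1.93 in male wt 9. Schwann cell (r = 0.05), astrocyte (0.17) and myelin (0.29) lists also had low values, as did the library total (0.24). Without female wt 1 and male wt 19 these were -0.23 for muscle, 0.28 for Schwann cells, -0.01 for astrocytes, 0.47 for myelin and 0.04 for the library total. The values for cartilage and bone, sensory neurons and ependymal cells were 0.39, 0.49 and -0.55, and without those 2 libraries 0.23, 0.56 and -0.50. Over all 12 libraries, single astrocyte and radial glia markers ran from an r of -0.44 (Slc1a3) to 0.64 (Gfap).

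**Figure D5:**
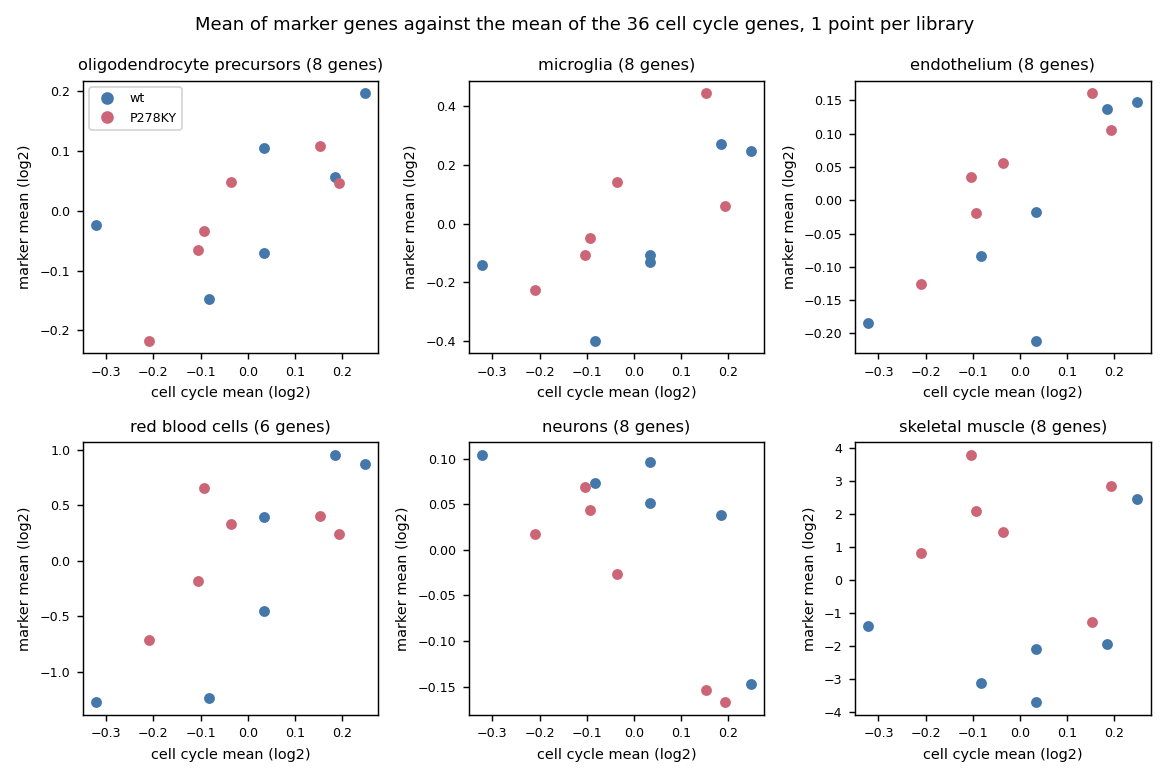
Mean of the marker genes of 6 cell types against the mean of the 36 cell cycle genes, both as log2 CPM centred on each gene's mean, with 1 point per library (blue wt, red P278KY). Precursor, microglial, endothelial and red blood cell means climb with the cell cycle mean (r from 0.69 to 0.76), the neuronal mean declines (-0.69), and muscle shows no slope (0.06).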

How the data were processed

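Poly(A) RNA of whole spinal cord was sequenced with stranded KAPA kits, per the labels' protocols. Per the submitters' processing notes, Bowtie2 2.2.0 and RSEM 1.2.12 were used. No source used here gives the genome build, annotation or strand setting. The deposited files hold, per the file headers, expected counts, TPM and FPKM for each gene and library. Expected counts, as deposited, are estimated fragment numbers in which a fragment shared by several genes is divided. TPM, as deposited, is scaled to transcript length, and the FPKM column as deposited was not used.

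Expected counts were rounded. filterByExpr of edgeR over the 4 groups selected the genes, which were scaled with TMM factors. The test was edgeR 4.0.16 quasi-likelihood (robust) in R 4.3.3, fitted on all 17995 genes, with labelled sex as a term. Within-sex and interaction effects came from 1 mean per group. SE was the log2 fold change over the square root of F, and intervals are 2.26 SE on each side. The common biological coefficient of variation was 23.9%. Log2 CPM had a prior count of 2. The procedure was tested on simulated counts drawn separately for each gene, which do not carry the members' shared variation between libraries. Replicates are separate mice.

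The members and lists were chosen with earlier results of these data known. Fold changes are printed for the member with the smallest genotype p in each role, for Mki67, and for 2 genes per pathway list, with nearest genes chosen by r (predicted genes passed over). Others named with values mark the ends of a range, an overlap or a comparison and were chosen after their values were seen. Alternatives were RLE factors, library totals, no filter, DESeq2 1.42.0, limma 3.58.1 (voom, and trend on log2(TPM + 1)), a strict filter that asked 6 libraries for a CPM above 1, no sex term, each library left out, and both libraries with contrary sex marks left out. Promoter windows and gene overlaps use RefSeq GRCm38.p6 and GENCODE M21, which may differ from the authors' annotation.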

Additional observations from a re-analysis of the deposited data

Results flagged for a closer look

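Over 74 groups of 6 libraries (each member and each summary in each genotype), 2 held a library that stood far from the others. Chance alone would give about 1 group in 20, which is more than were found. Bub1 in wt was lowest in female wt 1, at 4.08 CPM, with the other 5 wt libraries between 6.39 and 7.65 CPM. Female wt 1 was also the lowest library for 20 of the 36 members. Ccne2 in P278KY was lowest in male P278KY 13, at 8.38 CPM, with the other 5 between 9.68 and 10.2 CPM. Neither gene passed the genotype test.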

How the results depend on the processing

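No member was called under any setting that was run. Library totals, both filters, limma and the fit without a sex term were run for the genotype effect only. Over all genes, the single genotype call of edgeR became 0 under the strict filter, 2 without a sex term, 33 with DESeq2, 0 without both libraries of contrary sex marks, and 1 to 3 with single libraries left out (3 without female wt 2, 2 without female P278KY 10). From 0 calls in females, DESeq2 gave 296, omission of both contrary libraries 11, and single omissions 0 to 9 (9 without female wt 14). From 0 in males these were 34, 4 and 0 to 4, and from 0 for the interaction 279, 5 and 0 to 3. The median interaction of the members, 0.24, ran from 0.11 (without male wt 19) to 0.42 (without female P278KY 4). The median pairwise r of 0.70 was 0.60 on log2(TPM + 1) and 0.63 to 0.74 with single libraries left out, and on log2(TPM + 1) r was 0.854 for Dlgap5 and 0.817 for Parpbp. Signs of near-zero fold changes turned: Bub1b reached 0.0619 without both contrary libraries and -0.0809 to 0.0339 with single omissions, Ncapg -0.0523 to 0.101, and Mki67 0.0649 and -0.130 to 0.0237. The cause was not tested. No paired analysis was possible because the 4 groups share no mouse numbers. The 6 mice per genotype limit the precision to the intervals given, and expected counts limit it for members that share fragments with other genes.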

Other observations

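At the opposite end of the ranking by likeness to the members' mean stood genes of which several have known roles at synapses, chosen after their values were seen. Nceh1 had the lowest r over the 12 libraries, at -0.96, with levels from 84.7 to 104 CPM. Diras2, a small GTPase, and Zfyve9 were at -0.94, and Sh3gl2, which encodes the synaptic vesicle protein endophilin A1, was at -0.94. Aak1 (-0.93), the plasma membrane calcium pump gene Atp2b2 (-0.93), Camkk2 (-0.93) and Synj1 (-0.93), which encodes the phosphatase that uncoats synaptic vesicles, followed. Over all genes tested 1.87% had an r under -0.8 and 1.74% an r above 0.8. None of these genes passed the genotype test (edgeR).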
